A study of Rattus norvegicus with 19 samples.

Results

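The 9 genes described here encode dual specificity phosphatases: Dusp1, Dusp2, Dusp4, Dusp5, Dusp6, Dusp8, Dusp10, Dusp14 and Dusp16. They were chosen by name, with earlier results of these data known, and they are 9 of the 17715 gene symbols in the deposited table. The value that drew attention to the family was the rise after depolarization, in cortex, of an enhancer RNA upstream of Dusp16. That rise and the cortex response of Dusp16 itself are therefore given as a description with no test. The table pairs each gene with every transcriptionally active putative enhancer (TAPE) within 1 Mb of its start site. A TAPE is an accessible intergenic region that gives RNA from both strands. The 9 genes have 299 of the 388605 TAPE-gene pairs, formed with 299 of the 27538 TAPEs.

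Dual specificity phosphatases remove phosphate from both tyrosine and threonine or serine. Most of those considered here are mitogen-activated protein (MAP) kinase phosphatases, which switch off the MAP kinases ERK, JNK and p38 by taking the activating phosphates from a shared threonine-x-tyrosine motif. Several are themselves transcribed when the kinases are active, so they form a negative feedback loop. In neurons, calcium entry during depolarization drives ERK signalling and the immediate early genes, and the inducible phosphatases are counted among these early genes.

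RNA was taken from primary neurons of embryonic day 18 Sprague-Dawley rats, grown from cortex, hippocampus or striatum. At 11 days in vitro the cultures received KCl, which depolarizes neurons, or vehicle for 1 h. No group carried a transgene or other genetic change. By the titles, each of the 6 groups had 3 libraries, except striatum vehicle with 4, whereas the study's methods give striatum 3 vehicle and 4 KCl libraries. The sources disagree on the dose of KCl, with 25 mM per the labels of the samples and 10 mM per the series design, and cortex vehicle replicate 3 has a cortical title but a striatal tissue label. Its title decided its group here.

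Library totals ran from 46.4 M to 72.5 M reads, the numbers by which the TAPE values had been scaled. No library was identical to another. Summed markers of striatum and hippocampus matched the titles. The sum of 10 striatal neuron markers was 3034 to 3530.0 RPM (reads per M library reads) in striatum and at most 337 elsewhere, cortex vehicle replicate 3 included, and that of 2 hippocampal markers (Prox1, Fibcd1) was 157 to 162 in hippocampus and at most 18.9 elsewhere. Some of these markers moved with KCl. The striatal sum was 3034 to 3123 with vehicle and 3397 to 3530.0 with KCl in striatum, and 299 to 315 and 319.8 to 337 in hippocampus. By limma, 5 of the 10 were called higher in striatum (Drd1, Penk, Tac1, Gad1 and Gad2), 4 in hippocampus and 2 in cortex. The sum of Prox1 and Fibcd1 was 7.79 to 8.72 with vehicle and 16.8 to 18.9 with KCl in cortex, and 2.80 to 3.99 and 7.18 to 8.11 in striatum. The part of these shifts in the KCl results was not tested. Glial RNA differed between regions. The sum of 4 astrocyte markers (Gfap, Aqp4, Aldh1l1, Slc1a3) was 1648 to 1738 RPM over the hippocampus libraries, 829.7 to 991 over cortex and 201 to 227 over striatum. Aldh1l1 did not follow the order of the sum, with vehicle means of 22.8 RPM in cortex and 9.69 in both hippocampus and striatum. Within regions the vehicle and KCl ranges of that sum overlapped in hippocampus and striatum, while in cortex they were 829.7 to 848 with vehicle and 869.6 to 991 with KCl. Of the 4, Slc1a3 passed the test in cortex, by 0.17 ± 0.04 on the log2 scale (limma adjusted p = 0.00469), and its part in the cortical results was not tested. The 4 recovered microglial markers summed to at most 0.625 RPM, and none of the recovered glial or endothelial markers was at 0 in every library. In these bulk samples, fewer cells of a type and less RNA per cell cannot be told apart.

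The start regions of 5 genes are shown because they stand for the response patterns below: Dusp1 with the steepest rise in cortex and hippocampus, Dusp5 with the weakest rise in hippocampus, Dusp14, whose level peaked in depolarized striatum, Dusp16, singled out for cortex, and Dusp2 with none that passed a test. Each line gives the 250 bases before the RefSeq start on the GRCr8 assembly, 5′ to 3′ on the gene's strand. The windows are chr10:17184603-17184852 (plus strand) for Dusp1, chr1:262543524-262543773 (plus) for Dusp5, chr10:69452342-69452591 (minus; the most downstream of its 3 windows) for Dusp14, chr4:169361509-169361758 (minus) for Dusp16 and chr3:135009386-135009635 (plus) for Dusp2. Capitals mark matches, on either strand, to the cAMP response element (CRE, TGACGTCA), to its shorter core TGACG, to the AP-1 site TGANTCA and to the CArG box bound by serum response factor. A full CRE also holds the core on each strand.
Dusp1: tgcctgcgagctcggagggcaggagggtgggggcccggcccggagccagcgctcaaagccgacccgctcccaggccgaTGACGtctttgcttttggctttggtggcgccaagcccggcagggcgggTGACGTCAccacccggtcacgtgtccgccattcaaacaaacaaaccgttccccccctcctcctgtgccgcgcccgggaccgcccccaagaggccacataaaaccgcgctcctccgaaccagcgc
Dusp5: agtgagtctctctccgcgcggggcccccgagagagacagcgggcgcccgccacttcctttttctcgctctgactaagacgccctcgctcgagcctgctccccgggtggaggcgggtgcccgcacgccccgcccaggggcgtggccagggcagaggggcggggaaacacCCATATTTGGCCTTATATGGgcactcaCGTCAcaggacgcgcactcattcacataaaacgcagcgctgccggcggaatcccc
Dusp14: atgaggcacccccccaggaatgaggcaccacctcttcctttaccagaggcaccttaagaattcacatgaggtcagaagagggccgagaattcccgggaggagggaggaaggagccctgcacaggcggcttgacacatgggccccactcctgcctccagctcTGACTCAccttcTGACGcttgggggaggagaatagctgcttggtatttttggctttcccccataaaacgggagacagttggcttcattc
Dusp16: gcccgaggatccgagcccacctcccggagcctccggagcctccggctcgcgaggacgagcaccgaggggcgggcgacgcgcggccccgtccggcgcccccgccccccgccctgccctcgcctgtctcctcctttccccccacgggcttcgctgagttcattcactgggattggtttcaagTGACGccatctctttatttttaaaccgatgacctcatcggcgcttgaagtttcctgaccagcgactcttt
Dusp2: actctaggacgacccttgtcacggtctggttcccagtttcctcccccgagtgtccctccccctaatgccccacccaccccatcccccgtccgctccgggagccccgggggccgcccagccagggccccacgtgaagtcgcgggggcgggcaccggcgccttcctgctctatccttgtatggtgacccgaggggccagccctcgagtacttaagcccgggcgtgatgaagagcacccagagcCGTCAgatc

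RefSeq windows were found for 8 of the 9 genes, all but Dusp4, and 10 windows were searched. A full CRE was present in 1 of the 8 genes, Dusp1, at 124 to 117 bases before the start, and in 1.59% of all 33469 windows of this length. The shorter core was present in 5 genes (Dusp1, Dusp2, Dusp5, Dusp14 and Dusp16) and in 18.2% of all windows. An AP-1 site was present in Dusp14, 89 to 83 bases before the start, and in 6.34% of windows. A pair of CArG boxes stood in Dusp5, at 82 to 73 and 72 to 63 bases before the start, and 1.5% of windows had at least 1. The CArG box was added to the search after the sequences were seen. These are matches of letters and say nothing of binding.

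To ask how each gene responded to depolarization, its RPM was compared between KCl and vehicle within each region. Gene values came from the deposited correlations, which fix the number of reads of a gene in every library, up to a common factor that leaves ratios unchanged. Because gene lengths as counted were not given, levels are compared between libraries and not between genes. Log2 changes are from limma on log2(RPM + 0.1), fitted to 11978 genes with a mean of at least 0.5 RPM. The planned fit used each gene's profile in units of its own standard deviation for 16115 genes, and its calls are given beside the others. Both adjust p-values by Benjamini-Hochberg over all genes tested, with a threshold of 0.05.

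After KCl, 6 of 8 tested genes rose in cortex (Dusp1, Dusp4, Dusp5, Dusp6, Dusp10 and Dusp14), the same 6 of 9 rose in hippocampus, and these 6 and Dusp8 rose in striatum. None fell. Over all genes, 6.31% were called higher in cortex, 4.26% in hippocampus and 5.89% in striatum. The planned fit called the same genes in cortex and striatum, and 5 in hippocampus, where Dusp10 had an adjusted p of 0.0517. It called 4.27%, 2.79% and 4.08% of all genes higher in the 3 regions. An exact permutation of treatment within regions, two-sided with 14000 arrangements, called 7 of 8 genes higher over the regions together, all but Dusp2, against 6.26% of all genes. For 6 of the 7 the p was 7.1e-05, the smallest the arrangements can give (adjusted p = 0.0018). Since the genes were picked with results known, the counts describe these genes and are not read against the share of all genes.

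**Figure D1:**
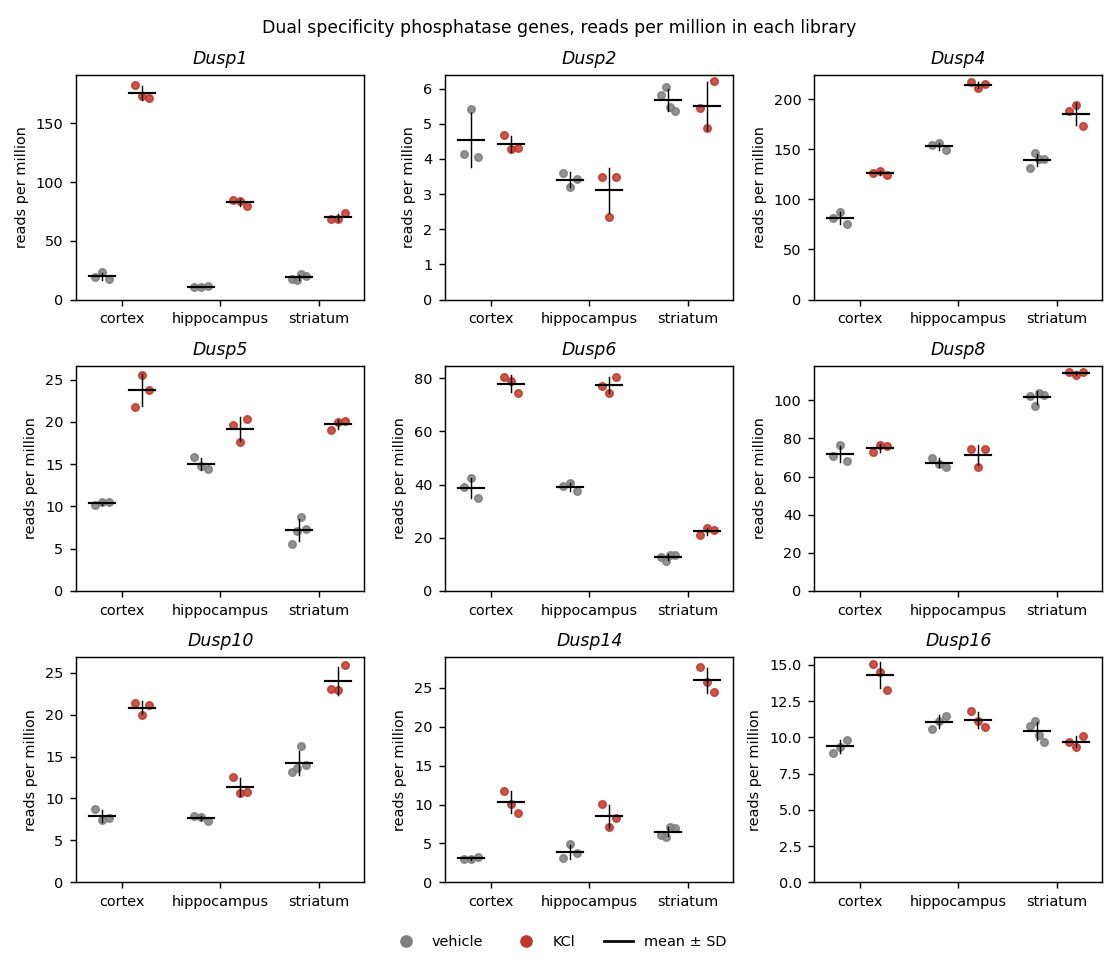
RPM (vertical axis, linear from 0, its own scale for each gene) of the 9 genes in each of the 19 libraries, by region, with vehicle in grey and KCl in red. Horizontal lines are group means and vertical lines SDs. Dusp1 libraries with KCl lie far above vehicle in every region. Those of Dusp4, Dusp5, Dusp6, Dusp10 and Dusp14 also lie above vehicle in every region. Dusp16 libraries with KCl lie above vehicle in cortex only, by less than those of Dusp1, and those of Dusp2 overlap throughout.

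Dusp1 (chr10:16970626-16973418 on Rn6, plus strand) encodes a nuclear phosphatase of ERK, JNK and p38 and is a classic immediate early gene. In cortex its vehicle libraries had 19.3, 23.3 and 17.4 RPM and its KCl libraries 183, 173 and 172. In hippocampus the values were 10.9, 10.8 and 11.3 with vehicle and 85, 83.5 and 79.7 with KCl. In striatum they were 17.1, 16.5, 21.4 and 20.2 with vehicle and 68.3, 68.3 and 73.6 with KCl. The groups did not overlap in any region, and every KCl library stood well above its region's vehicle libraries. Mean levels rose 8.81-fold in cortex, 7.55-fold in hippocampus and 3.73-fold in striatum. The log2 changes were 3.14 ± 0.09 (SE; limma adjusted p = 5.83e-19), 2.91 ± 0.09 (4.28e-18) and 1.9 ± 0.08 (2.47e-15).

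The Dusp1 response was smaller in striatum than elsewhere. The log2 change was larger by 1.24 ± 0.12 in cortex than in striatum (limma adjusted p = 1.53e-07) and by 1.01 ± 0.12 in hippocampus than in striatum (3.86e-06). Cortex and hippocampus differed by 0.24 ± 0.12, which did not pass (0.468). The vehicle level ordered the regions in another way: hippocampus was lower than cortex by 0.85 ± 0.09 and lower than striatum by 0.77 ± 0.08 on the log2 scale (adjusted p = 7.19e-09 and 6.17e-09), and the vehicle levels of cortex and striatum did not differ by the test (0.356).

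Dusp4 (chr16:61078175-61091169, minus strand), another nuclear phosphatase of ERK and JNK, had the smallest rise in cortex and striatum of the 6 genes called in all 3 regions. Vehicle and KCl libraries ran from 75.4 to 87.6 and from 124 to 128 RPM in cortex, from 149 to 156 and from 211 to 217 in hippocampus, and from 131 to 146 and from 173 to 194 in striatum. The groups were again apart in each region. Mean levels rose 1.54-, 1.4- and 1.33-fold, with log2 changes of 0.63 ± 0.05, 0.49 ± 0.05 and 0.41 ± 0.05 (SE; largest limma adjusted p = 4.98e-07). No difference in the change between regions passed (smallest adjusted p = 0.0945). What did differ was the level before treatment, which was lower in cortex than in hippocampus by 0.91 ± 0.05 and than in striatum by 0.77 ± 0.05 on the log2 scale (5.28e-14 and 1.49e-13).

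Dusp5 (chr1:274245184-274258595, plus strand) encodes a nuclear phosphatase selective for ERK. In cortex the vehicle libraries had 10.2, 10.5 and 10.5 RPM and the KCl libraries 21.8, 25.6 and 23.8. In hippocampus they had 15.8, 14.8 and 14.4 with vehicle and 19.7, 17.6 and 20.3 with KCl. In striatum the values were 5.58, 7.09, 8.80 and 7.29 with vehicle and 19.1, 20 and 20.1 with KCl. KCl libraries lay above vehicle in each region, by the least in hippocampus, where vehicle libraries were already the highest of the 3 regions. The levels rose 2.28-, 1.28- and 2.74-fold in these regions, with log2 changes of 1.18 ± 0.11 (limma adjusted p = 4.92e-09), 0.35 ± 0.11 (0.0283) and 1.46 ± 0.10 (3.08e-11).

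The hippocampal change of Dusp5 was smaller than the cortical one by 0.83 ± 0.15 on the log2 scale (limma adjusted p = 0.00125) and than the striatal one by 1.11 ± 0.14 (1.75e-05), while cortex and striatum did not differ by the test (0.452). The vehicle level went the other way. It was higher in hippocampus than in cortex by 0.52 ± 0.11 and than in striatum by 1.07 ± 0.10 (0.000167 and 5.11e-10). After KCl the means were 23.7 ± 1.9, 19.2 ± 1.42 and 19.7 ± 0.541 RPM (SD, n = 3 each). The hippocampal call rested on its libraries: without hippocampus vehicle replicate 2 or 3, or without KCl replicate 1 or 3, the adjusted p ran up to 0.111 and the call was lost.

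Dusp2 (chr3:119776925-119779099, plus strand), an inducible nuclear phosphatase best known from lymphocytes, did not pass in any region. Its libraries held 4.07 to 5.43 RPM with vehicle and 4.29 to 4.68 with KCl in cortex, 3.20 to 3.61 and 2.36 to 3.48 in hippocampus, and 5.37 to 6.06 and 4.87 to 6.21 in striatum. The groups overlapped in each region, and 134 to 394 reads stood behind each value. The log2 changes were -0.03 ± 0.14, -0.15 ± 0.14 and -0.05 ± 0.13 (limma adjusted p = 0.933, 0.564 and 0.835).

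Dusp6 (chr7:41475163-41479392, plus strand) encodes the cytoplasmic phosphatase of ERK. The vehicle libraries had 39.0, 42.3 and 34.8 RPM in cortex, 39.3, 40.6 and 37.4 in hippocampus, and 12.8, 11.1, 13.5 and 13.4 in striatum. The KCl libraries had 80.6, 78.8 and 74.5 in cortex, 76.9, 74.6 and 80.6 in hippocampus, and 20.9, 23.6 and 22.8 in striatum. Vehicle and KCl groups were apart everywhere, and even the depolarized striatal libraries stayed under the untreated ones of the other regions. The folds were 2.01, 1.98 and 1.77, with log2 changes of 1.01 ± 0.07, 0.98 ± 0.07 and 0.82 ± 0.07 (SE; largest limma adjusted p = 1.61e-09). On the log2 scale these did not differ between regions by the test (interaction adjusted p = 0.549). In the planned fit, which compares absolute changes in units of the gene's SD, they did (1.5, 1.46 and 0.37; adjusted p = 0.00083).

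The remaining MAP kinase phosphatases, Dusp8, Dusp10 and Dusp16, act mainly on JNK and p38. Dusp10 (chr13:104284660-104321455, plus strand) had 8.72, 7.4 and 7.62 RPM with vehicle and 21.4, 20 and 21.1 with KCl in cortex. In hippocampus it had 7.85, 7.78 and 7.34 with vehicle and 12.6, 10.6 and 10.8 with KCl. In striatum it had 13.1, 13.6, 16.3 and 14 with vehicle and 23.1, 22.9 and 25.9 with KCl. The groups were apart in each region, and the striatal vehicle libraries were above the other vehicle libraries. The folds were 2.63, 1.48 and 1.68, with log2 changes of 1.39 ± 0.09 (limma adjusted p = 9.20e-12), 0.56 ± 0.09 (0.000108) and 0.75 ± 0.08 (3.34e-07). The cortical change was larger than the hippocampal one by 0.83 ± 0.13 (0.000136) and than the striatal one by 0.64 ± 0.12 (0.00208).

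Dusp8 (chr1:215030429-215033460, minus strand) passed in striatum alone, with a small change. Its striatal libraries had 102, 96.8, 104 and 103 RPM with vehicle and 115, 113 and 115 with KCl, without overlap. The fold was 1.12 and the log2 change 0.17 ± 0.05 (limma adjusted p = 0.0142). The changes of 0.07 ± 0.05 in cortex and 0.08 ± 0.05 in hippocampus did not pass (0.460 and 0.356), and no difference between regions passed (smallest adjusted p = 0.646). Leaving out striatum vehicle replicate 4, or KCl replicate 1 of striatum, ended the striatal call, with an adjusted p of up to 0.0543.

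Dusp14 (chr10:71363688-71383602, minus strand) encodes a small atypical member that lacks the kinase-binding domain of the others. In cortex its vehicle libraries had 3.03, 2.96 and 3.31 RPM and its KCl libraries 11.8, 10.1 and 8.95. In hippocampus the values were 3.11, 4.86 and 3.79 with vehicle and 10.1, 7.14 and 8.25 with KCl. In striatum they were 6.14, 5.86, 7.09 and 6.98 with vehicle and 27.7, 25.8 and 24.5 with KCl. The depolarized striatal libraries stood above all others, and no groups overlapped within a region. The folds were 3.32, 2.17 and 3.99, with log2 changes of 1.69 ± 0.14 (limma adjusted p = 8.87e-10), 1.11 ± 0.14 (2.82e-06) and 1.98 ± 0.13 (1.62e-11). The striatal change exceeded the hippocampal one by 0.88 ± 0.19 on the log2 scale (0.00796). The other pairs of regions did not differ by the test (0.151 and 0.599).

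Dusp16 (chr4:168472412-168517177, minus strand) was higher with KCl in cortex, which is given here with no test. The cortex vehicle libraries had 8.95, 9.34 and 9.85 RPM and the KCl libraries 15.1, 14.5 and 13.3, a fold of 1.52. In hippocampus the values were 10.6, 11.1 and 11.5 with vehicle and 11.8, 11.1 and 10.7 with KCl. In striatum they were 10.8, 11.1, 10.2 and 9.71 with vehicle and 9.65, 9.33 and 10.1 with KCl. Groups were apart in cortex and overlapped elsewhere. The log2 change was 0.02 ± 0.08 in hippocampus (limma adjusted p = 0.931) and -0.11 ± 0.07 in striatum (0.330). Between 506 and 909 reads stood behind each value.

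**Figure D2:**
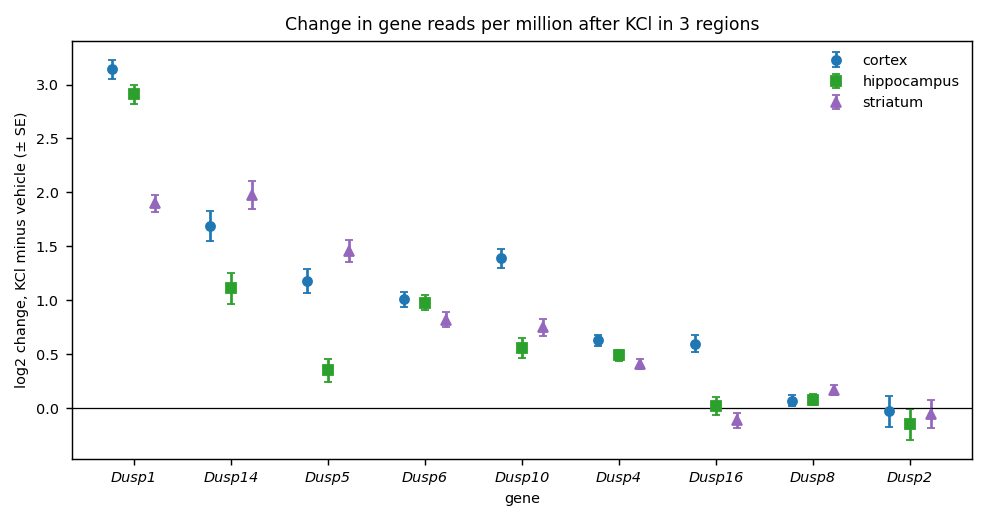
Log2 change of RPM, KCl minus vehicle, with its SE (vertical axis) for each of the 9 genes (horizontal axis, ordered by mean change) in cortex (circles), hippocampus (squares) and striatum (triangles). Dusp1 changes most in cortex and hippocampus, Dusp14 in striatum, Dusp5 least in hippocampus among the regions, and Dusp16 lies at 0.60 in cortex, where it was not tested, and near 0 elsewhere.

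The difference of the response between regions was also tested as a whole. On the log2 scale it passed for 4 of 8 genes: Dusp1 (interaction, limma adjusted p = 1.12e-07), Dusp5 (2.76e-05), Dusp10 (0.000169) and Dusp14 (0.0139). Of all genes 4.02% passed. The planned fit passed 5, these and Dusp6, where 2.95% of all genes passed. By value, Dusp1 and Dusp6 had their largest log2 change in cortex and their smallest in striatum, Dusp5 and Dusp14 their largest in striatum and smallest in hippocampus, and Dusp10 its largest in cortex and smallest in hippocampus. For Dusp6 those differences did not pass.

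The regional level, with treatment as a covariate, differed for 8 of 9 genes, all but Dusp16 (limma adjusted p = 0.162), on the log2 scale and in the planned fit. This is common in these data, since 89.2% of genes passed on the log2 scale and 75.0% in the planned fit. Among vehicle libraries, Dusp6 was lower in striatum than in cortex by 1.60 ± 0.07 on the log2 scale (1.44e-16), and Dusp14 was higher there by 1.04 ± 0.13 (1.09e-07). Dusp8 and Dusp10 were also higher in striatum than in cortex, by 0.50 ± 0.05 and 0.84 ± 0.08 (1.17e-09 and 2.46e-09), and Dusp2 was higher by 0.33 ± 0.13 (0.0296). Cortex and hippocampus vehicle levels did not differ by the test for Dusp6, Dusp8, Dusp10 and Dusp14 (adjusted p from 0.0659 to 0.858). The test over both treatments takes in the cortex KCl libraries, where Dusp16 was higher. Among vehicle libraries alone, Dusp16 was lower in cortex than in hippocampus by 0.24 ± 0.08 (limma adjusted p = 0.013). The same cortex vehicle libraries enter its untested cortex response. The astrocyte marker sum, though not Aldh1l1 against hippocampus, was also several times lower in striatum, as given above. The part of the sum in these regional levels was not tested.

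For each gene the 3 other genes with the most similar profile over the 19 libraries were listed, by Pearson's r of the standardised levels. The libraries share the groups, so r follows region and treatment, and it is a description. Dusp1 lay closest to Gadd45b (0.994), Cry2 (0.992) and Ier2 (0.986). Dusp6 lay closest to Bdnf (0.983), Mafk (0.981) and Kif18a (0.968). Dusp5 lay closest to Erf (0.955), an ETS repressor that ERK phosphorylates, and then to Irf2bp2 (0.954) and Usp12 (0.932). Dusp14 was closest to Lrrc4 (0.989), Gpr3 (0.975) and Fosl2 (0.974), and Dusp10 to Per1 (0.966), Ube2d3 (0.963) and Atg16l1 (0.959). Dusp16 had lower values, with Hlx (0.919), Med14 (0.901) and Hdac4 (0.900). Dusp4 was closest to Tpt1 (0.955), Rnd3 (0.940) and Clcn3 (0.931). Dusp2 was closest to Pianp (0.934), Galt (0.934) and Ppp2r5b (0.930), and Dusp8 to Hspa5 (0.989), Hs3st1 (0.986) and Slc7a8 (0.986). Among the 9 genes themselves, r ran from -0.67 for Dusp6 and Dusp8 to 0.84 for Dusp10 and Dusp14, and Dusp1 and Dusp5 had 0.82.

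The rest of the pathway was read from gene lists. Of 15 other dual specificity phosphatases, 13 were recovered and 10 were expressed enough to test. None passed in cortex or hippocampus, where 0 of 10 were called by limma and the smallest adjusted p was 0.0569 (Dusp22) and 0.139 (Dusp18). In striatum 0 rose and 3 fell: Dusp22, from 13.2 ± 0.495 (SD, n = 4) to 10.1 ± 0.410 RPM (n = 3), with a log2 change of -0.39 ± 0.08 (limma adjusted p = 0.00133), Dusp12 (-0.29 ± 0.07, 0.00583) and Dusp7 (-0.19 ± 0.06, 0.0367). The share of all genes called lower is not given here, so counts of falls in this and the next lists only describe the listed genes. The median log2 change of the 10 was -0.14, -0.01 and -0.11 in the 3 regions, beside -0.04, -0.04 and -0.05 over all genes. That of the 9 genes was 1.01, 0.49 and 0.75.

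The kinases that these phosphatases act on changed little. Of 8 MAP kinase genes tested, 1 rose in cortex, none passed in hippocampus (smallest limma adjusted p = 0.149), and 1 rose and 2 fell in striatum. The largest change was that of Mapk8, which encodes JNK1, from 156 ± 0.484 to 215 ± 0.884 RPM in cortex (SD, n = 3 each), a log2 change of 0.46 ± 0.04 (limma adjusted p = 8.87e-10). In hippocampus Mapk8 changed by 0.01 ± 0.04 (0.956) and in striatum by 0.10 ± 0.03 (0.0433). Of 5 MAP kinase kinase genes, Map2k5 fell in hippocampus (-0.26 ± 0.05, 0.00140) and in striatum (-0.14 ± 0.05, 0.0447), and no other passed.

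Some inhibitors from other families that feed back on ERK also changed. Of 6 tested, 3 rose in cortex, 1 rose and 2 fell in hippocampus, and 4 rose in striatum. Spry4, a Sprouty that restrains receptor signalling to ERK, rose from 35.1 ± 2.87 to 63.7 ± 1.31 RPM in cortex (SD, n = 3 each), a log2 change of 0.86 ± 0.05 (limma adjusted p = 5.42e-12). It changed by 0.11 ± 0.05 in hippocampus (0.205) and by 0.17 ± 0.05 in striatum (0.0157). Spry1 rose by 0.96 ± 0.08 in cortex and by 0.86 ± 0.08 in striatum (2.44e-09 and 8.39e-09), with 0.08 ± 0.08 in hippocampus (0.590). Errfi1, which inhibits the EGF receptor, rose in each region, by 0.89 ± 0.07, 1.06 ± 0.07 and 0.30 ± 0.06 (largest 0.00112). All 16 immediate early genes listed rose in all 3 regions, with median log2 changes of 3.54, 1.85 and 2.98. Of these, Fosb rose from 4.79 ± 1.12 to 306 ± 5.24 RPM in cortex (SD, n = 3 each).

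**Figure D3:**
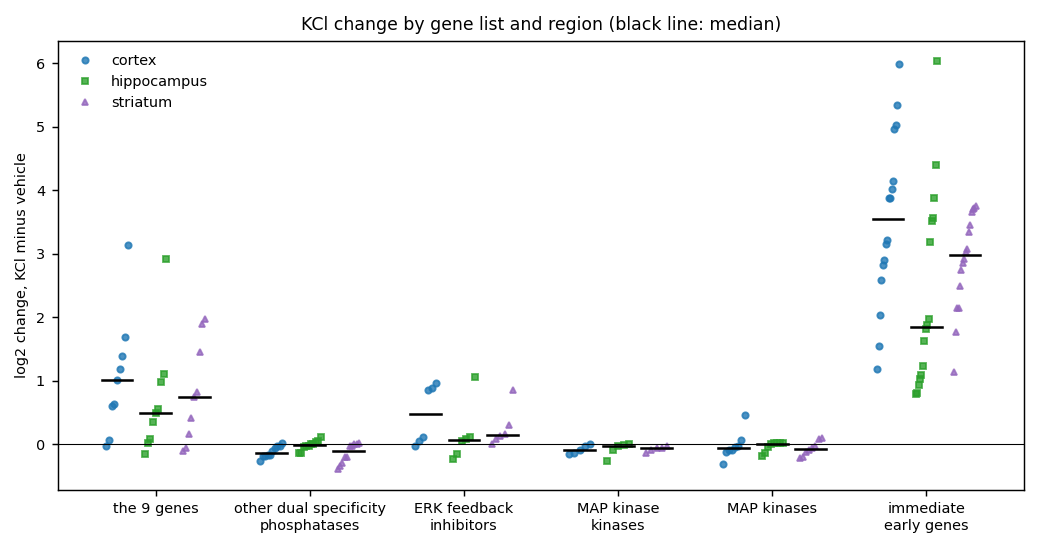
Log2 change of RPM, KCl minus vehicle (vertical axis), of each tested gene in 6 lists (horizontal axis) in cortex (circles), hippocampus (squares) and striatum (triangles), with the list median as a black line. The 9 genes have medians of 1.01, 0.49 and 0.75, the other dual specificity phosphatases lie near 0, and the immediate early genes have medians of 3.54, 1.85 and 2.98.

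Most TAPEs near the 9 genes held little RNA, which was common in these data. Each TAPE value is a CPKM, the study's name for reads per kilobase of TAPE and per M library reads. The number of TAPEs within 1 Mb was 66 for Dusp4, 46 for Dusp16, 41 for Dusp5, 39 for Dusp1, 33 for Dusp10, 31 for Dusp6, 18 for Dusp2, 13 for Dusp14 and 12 for Dusp8. Of these 299, 13 reached a mean of 0.05 CPKM, the level needed for a test, beside 1870 of all 27538 TAPEs. They were 3 each for Dusp8 and Dusp16, 2 each for Dusp1, Dusp2 and Dusp4, 1 for Dusp10, and 0 for Dusp5, Dusp6 and Dusp14. Dusp14 had no TAPE within 200 kb of its start, and its nearest lay 353340 bp upstream, although the gene rose in every region. The median TAPE of a gene held 7 to 15 reads over all libraries.

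In the authors' deposited table, the Pearson r of TAPE and gene over all 19 libraries was above 0.5 for 20 of the 299 pairs (6.69%), beside 5.30% of all 388605 pairs. It was above 0.5 for 6 pairs of Dusp1, 4 each of Dusp4, Dusp6 and Dusp16, 1 each of Dusp2 and Dusp10, and none of Dusp5, Dusp8 and Dusp14. The highest r was 0.803 for Dusp16, 0.757 for Dusp1, 0.644 for Dusp2, 0.627 for Dusp6, 0.612 for Dusp4, 0.608 for Dusp10, 0.487 for Dusp5, 0.473 for Dusp8 and 0.099 for Dusp14. For Dusp16 and Dusp1 that best pair rests on 666 and 177 reads. For the other 7 genes it rests on 4 to 39 reads over all libraries. All pairs of a gene share its profile, so their r values are not independent.

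**Figure D4:**
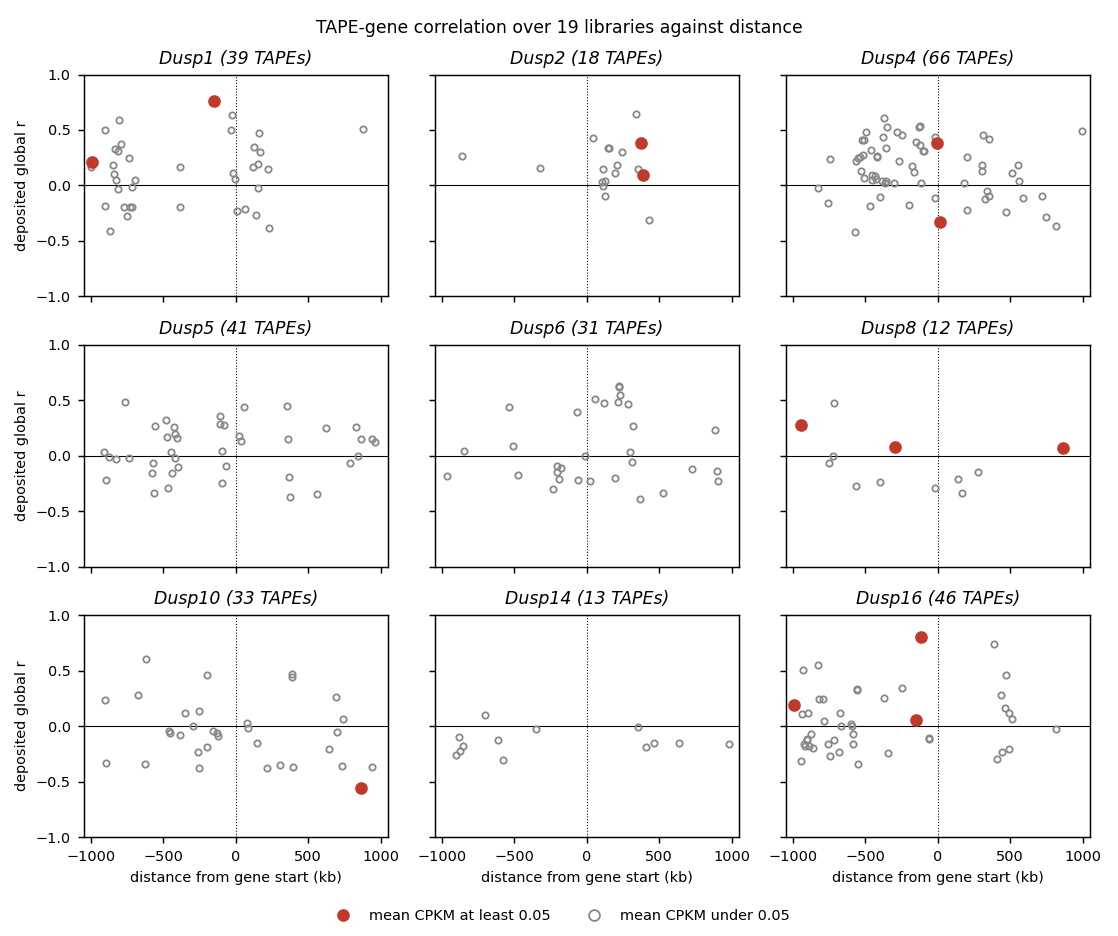
Deposited Pearson r of TAPE and gene over 19 libraries (vertical axis) against distance from the gene start in kb, negative upstream (horizontal axis), for the 299 pairs of the 9 genes. Filled red points are the 13 TAPEs with a mean of at least 0.05 CPKM. The filled points of Dusp16 (0.803) and Dusp1 (0.757) stand highest, and Dusp5, Dusp6 and Dusp14 have no filled point.

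The TAPE upstream of Dusp16 (chr4:168632041-168634201, 115944 bp before the start) was higher with KCl in cortex, the observation that drew attention to the family, again given with no test. Its cortex libraries had 0.111, 0.191 and 0.151 CPKM with vehicle and 0.588, 0.498 and 0.697 with KCl, from 67 and 226 reads. In hippocampus the values were 0.115, 0.263 and 0.310 with vehicle and 0.219, 0.261 and 0.224 with KCl. In striatum they were 0.163, 0.214, 0.383 and 0.264 with vehicle and 0.227, 0.239 and 0.204 with KCl. Groups overlapped outside cortex, as they did for the gene. The log2 change was 1.69 ± 0.25 in cortex, with no test, 0.10 ± 0.30 in hippocampus (limma adjusted p = 0.907) and -0.12 ± 0.25 in striatum (0.853), where it was 0.03 with each library centred on its median. Of the 46 TAPEs of Dusp16, this was taken as the one with the highest deposited r to the gene over all libraries. Its r with Dusp16 was 0.905 within cortex, 0.537 within hippocampus and -0.221 within striatum. A high r with Dusp16 was favoured by that choice.

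The 18 genes within 1 Mb of this TAPE were looked at in the log2 fit of genes, as a description. Gprc5d, Gsg1, Gm22892 and Bcl2l14 were too low for that fit. Dusp16 had the highest deposited r, which the choice of the TAPE favoured. Cdkn1b, which encodes the cell cycle inhibitor p27, followed with 0.711. Cdkn1b lay closer to the TAPE (56042 bp) and changed by 0.50, 0.29 and 0.13 in cortex, hippocampus and striatum on the log2 scale, where Dusp16 changed by 0.60, 0.02 and -0.11. Gpr19, the nearest start at 23552 bp, changed by 1.18, 1.02 and 0.77. Emp1, at 514122 bp, changed by 0.90, -0.19 and -0.12, with a mean of 1.26 RPM. The largest changes were those of Gprc5a, at 199789 bp, with 2.68, 2.03 and 2.68, a mean of 0.973 RPM and an r of 0.507. A second TAPE farther out (chr4:168665575-168667893, 149557 bp before Dusp16) did not share the pattern. Its cortex libraries ran from 0.301 to 0.443 CPKM with vehicle and from 0.283 to 0.390 with KCl (log2 change -0.08 ± 0.24, limma adjusted p = 0.941).

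The TAPE with the highest r to Dusp1 (chr10:16816368-16819003, 152940 bp before the start) had higher values with KCl in cortex and hippocampus. That r was taken over the same libraries, in which Dusp1 rose with KCl. The choice therefore favoured a rise of the TAPE and a high place of Dusp1 among its genes. Its mean of 0.0606 CPKM also reached the level needed for a test only with the cortex KCl libraries, its highest group. The tests below allow for neither. It had 0.0487, 0.0575 and 0.0620 CPKM with vehicle and 0.114, 0.121 and 0.155 with KCl in cortex, and 0.0134, 0.0196 and 0.0137 with vehicle and 0.0398, 0.0401 and 0.0758 with KCl in hippocampus. In striatum the values were 0, 0.0994, 0.0458 and 0.0655 with vehicle and 0.0430, 0.0560 and 0.0800 with KCl. The groups were apart in cortex and hippocampus and overlapped in striatum, but only 7 to 61 reads stand behind a group. The log2 changes of 0.76 ± 0.31, 0.62 ± 0.24 and 0.19 ± 0.37 did not pass (limma adjusted p = 0.384, 0.351 and 0.841), nor did that over all regions (0.51 ± 0.19, 0.0913). With each library centred on its median, or with voom on the recovered reads, the change over all regions passed (adjusted p = 0.0449 and 0.0374). Of the 16 genes within 1 Mb of it, Dusp1 had the highest r, and Bod1, with a log2 change of -0.02 in cortex, followed at 0.663.

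Leaving aside the untested cortical value of the Dusp16 TAPE, no TAPE near the 9 genes passed for KCl within a region. By limma, 0 of 12 tested passed in cortex, 0 of 13 in hippocampus and 0 of 13 in striatum, with 2, 3 and 2 under an unadjusted p of 0.05, and voom on the recovered reads also called 0 in each region. Over all TAPEs, 0.321%, 0.0535% and 1.23% of the 1870 tested passed in the 3 regions. No difference of the response between regions passed either (0 of 12 by limma and by voom, 0 of them under an unadjusted p of 0.05, beside 0.0535% of all). Over all regions 1 of 12 passed, beside 6.84% of all. It was a TAPE 386324 bp downstream of Dusp2 (chr3:120162315-120164183), which fell by 0.70 ± 0.15 on the log2 scale (limma adjusted p = 0.00457). Its libraries had 0.257 to 0.469 CPKM with vehicle and 0.141 to 0.196 with KCl in cortex, 0.255 to 0.313 and 0.107 to 0.189 in hippocampus, and 0.250 to 0.345 and 0.123 to 0.326 in striatum. The groups were apart in cortex and hippocampus and overlapped in striatum through 1 KCl library. With each library centred on its median the fall was 0.57 (adjusted p = 0.0271), and with no filter on low TAPEs the call was lost (0.0502). Its deposited r with Dusp2 was 0.098, and its best gene was Ap4e1 with 0.698.

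**Figure D5:**
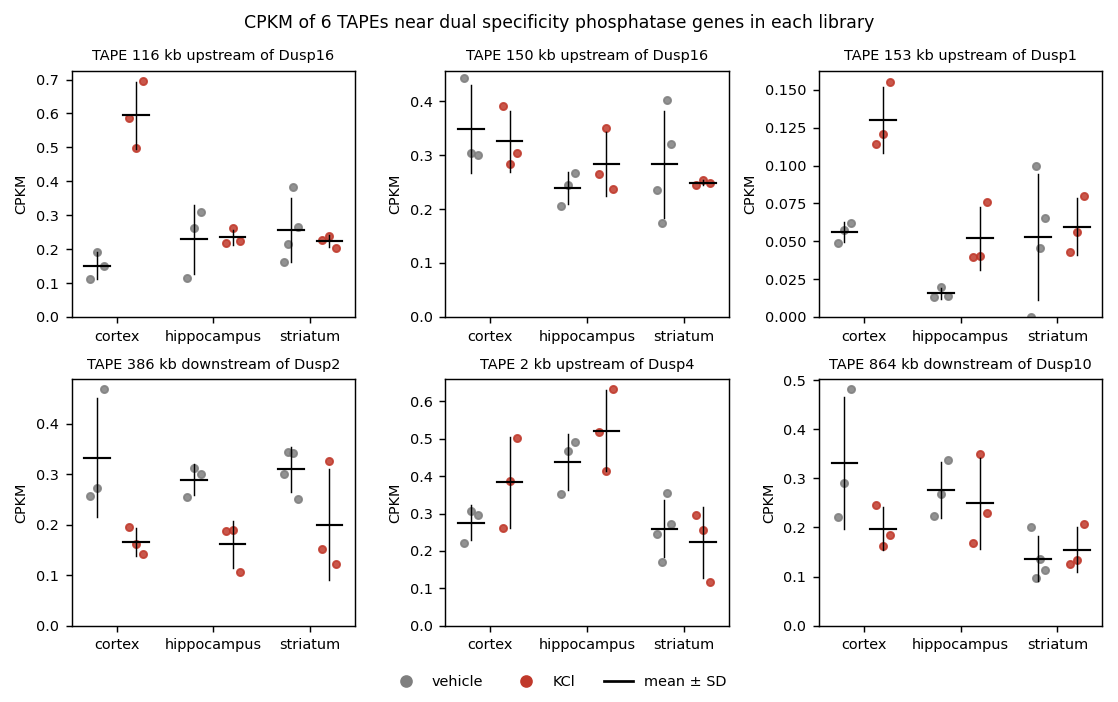
CPKM (vertical axis, linear from 0, its own scale for each panel) of 6 TAPEs near the 9 genes in each of the 19 libraries, by region, with vehicle in grey and KCl in red, group means as horizontal lines and SDs as vertical lines. The TAPE nearest Dusp16 of its 2 panels, 115944 bp upstream, is raised in the 3 cortex KCl libraries (0.498 to 0.697 CPKM) and not elsewhere, and the TAPE downstream of Dusp2 is lower with KCl in cortex and hippocampus.

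The level of 4 of the 13 TAPEs depended on region, beside 51.7% of all tested TAPEs. The nearest to any of the genes was a TAPE 2448 bp upstream of Dusp4 (chr16:61092789-61094446). It had means of 0.437 ± 0.0747 CPKM in hippocampus vehicle and 0.522 ± 0.109 in hippocampus KCl, against 0.275 ± 0.0461 and 0.383 ± 0.121 in cortex (SD, n = 3 each) and 0.260 ± 0.0758 (n = 4) and 0.222 ± 0.0947 (n = 3) in striatum (limma adjusted p = 0.00114). Dusp4 itself was also highest in hippocampus, but its striatal level was above the cortical one, which the TAPE did not show. The others were a TAPE 863532 bp downstream of Dusp10 that was lowest in striatum (chr13:105147360-105149024, 0.00561), where the gene was highest and the deposited r was -0.554, the TAPE described above for Dusp1 (0.0227), and a TAPE 373592 bp downstream of Dusp2 (chr3:120149451-120151583, 0.0334), highest in striatum vehicle with 0.263 ± 0.0411 CPKM (n = 4). The Dusp1 TAPE entered the tests only through its cortex KCl libraries, as said above, and the region test does not allow for this. Of the TAPEs tested near Dusp8, the nearest (chr1:215324024-215325705, 291404 bp upstream) and the one with the highest r (chr1:215978231-215980350, 945831 bp upstream, 0.278) passed neither for region (0.987 and 0.262) nor for KCl within a region.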

How the data were processed

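RNA-seq libraries of 19 rat neuron cultures were grouped by title. Per the submitters' processing notes and the study's methods, the authors trimmed reads with Trim Galore 0.4.5, aligned them to Rn6 and processed them with SAMtools 1.9. The replicates are biological per the methods, in which the authors compared TAPE counts with DESeq2. The authors' deposited table gives each TAPE-gene pair a distance, Pearson correlation scores and the TAPE's CPKM per library, an RPKM value normalised to library reads.

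TAPEs with a mean of at least 0.05 CPKM were tested as log2(CPKM + 0.05) with limma 3.58.1 (R 4.3.3), within regions, over regions and for the interaction. A gene's standardised profile was solved from its deposited correlations with many TAPEs, for 16115 of 17715 symbols (91.0%), and returned them within 1.2e-14. Whole reads were then recovered for all 16115, at most 0.014 from whole numbers, up to a common whole factor. They returned the deposited correlations within 9.1e-07. Per the study's methods, the authors quantified genes in SeqMonk and kept symbols with 1 annotated gene. Whether genes were counted by strand is not given in the sources used here, so overlapping and antisense reads could not be told apart. The design planned limma and an exact permutation test on standardised profiles. The fit of log2(RPM + 0.1) was added after the data were seen.

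The rule for names took the 9 genes, the 3 genes most similar to each, up to 4 examples of each gene list, and, of the tested TAPEs, those that passed, the nearest to each gene and the one with the highest correlation. Genes around the Dusp16 and Dusp1 TAPEs were named after their values were seen. These genes and lists were chosen with earlier results of these data known. Alternatives were other filters, pseudocounts and scalings, ranks, voom, a replicate block and leaving out each library. Scripts were tested on simulated data. Some list and marker results are not reported here. Promoter sequences are from RefSeq (GRCr8). Each value rests on the reads given, and precision is limited by the number of libraries and, for TAPEs, by counting error.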

Additional observations from a re-analysis of the deposited data

Results flagged for a closer look

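The response to KCl differed between regions for 5 genes in the planned fit of standardised profiles (limma interaction, adjusted over 16115 genes): Dusp1 (adjusted p = 1.29e-05), Dusp14 (8.75e-05), Dusp6 (0.00083), Dusp5 (0.00317) and Dusp10 (0.00496). All 3 or 4 libraries per group entered, and KCl lay above vehicle in each region for each of these genes, so the regions differed in size and not in direction. The call for Dusp6 depended on the scale, with an adjusted p of 0.549 on log2 values.

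In striatum vehicle, 1 of the 4 libraries stood apart for a TAPE 867357 bp downstream of Dusp8 (chr1:214165353-214166854). The lowest value was 0.134 CPKM, the median 0.144 and the highest 0.316, so that the gap took 0.917 of the range, above Dixon's critical value for 4 libraries. It was the only one of 22 groups tested to do so, and chance marks about 1 in 20.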

How the results depend on the processing

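Counts of called genes and TAPEs kept within 1.5 times the main value except as follows. Leaving out 1 library gave 3 to 6 hippocampal genes in place of 5 (3 without hippocampus vehicle replicate 3, KCl replicate 1 or KCl replicate 3), 6 to 7 in striatum, 6 in cortex, 5 for the interaction and 7 to 8 for region, and 1 to 2 TAPEs over all regions (2 without striatum vehicle replicate 4) and 3 to 4 for region. Ranks gave 4 genes in cortex, 3 in hippocampus, 5 in striatum and 0 for the interaction. Over all regions, TAPE calls numbered 0 with no filter on low values, where the TAPE downstream of Dusp2 had an adjusted p of 0.0502, and 2 with centring or voom in place of 1. Region dependence was called for 2 TAPEs with no filter, with centring and with vehicle libraries alone, in place of 4. Directions turned only for changes that had not passed. Dusp2 in cortex was 0.33 with ranks and, without vehicle replicate 2, 0.29 (SD units) or 0.10 (log2). In hippocampus Dusp2 was 0.06 or 0.03 without KCl replicate 2, and Dusp16 was -0.05 or -0.01 without vehicle replicate 1 and -0.09 or -0.02 without KCl replicate 1. In striatum Dusp2 was 0.03 with centring and 0.13 or 0.03 without KCl replicate 5, and the Dusp1 TAPE was -0.12 without vehicle replicate 2. Over all libraries left out in turn, the Dusp1 TAPE in striatum ran from -0.12 to 0.40, Dusp2 from -0.33 to 0.29 in cortex, from -0.45 to 0.06 in hippocampus and from -0.49 to 0.13 in striatum, and Dusp16 from -0.09 to 0.22 in hippocampus (genes in SD units). In the planned fit, the striatal call of Dusp6 (adjusted p = 0.0418) was lost with robust eBayes (0.0513) and without any 1 of the 7 striatal libraries (up to 0.124), and the hippocampal call of Dusp14 without hippocampus vehicle replicate 1 or 3 or KCl replicate 1 or 3 (up to 0.098). The cause was not tested.

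Same-numbered vehicle and KCl libraries did not deviate together (r from -0.18 to 0.08 over genes), so the numbers are not taken as pairs. A replicate block in cortex and hippocampus left 7 genes called over the regions, 6 in cortex and 6 in hippocampus on the log2 scale, and 1 TAPE over all regions. TAPE reads limit what can be seen: most TAPEs near these genes held too few to test.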

Other observations

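Enhancer RNA within 200 kb of Dusp2 was higher by value in every KCl group, although no single TAPE there was high enough to test. Summed over the 9 TAPEs, the vehicle libraries ran from 0.0276 to 0.0962 RPM in cortex, from 0 to 0.0362 in hippocampus and from 0 to 0.106 in striatum. The KCl libraries ran from 0.117 to 0.172, from 0.0700 to 0.106 and from 0.189 to 0.422. The groups were apart in each region, from 10, 4 and 10 reads with vehicle and 24, 16 and 44 with KCl, while Dusp2 itself did not pass the test in any region. The sums were chosen after their values were seen and were not tested. The share of all genes with such sums apart is not given here, so the separation, here and below, only describes these few reads.

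The same sum was apart between groups for the 14 TAPEs near Dusp1 in cortex, with 0.273 to 0.475 RPM with vehicle and 0.629 to 0.723 with KCl, and for the 4 near Dusp16 in cortex, with 1.12 to 1.36 and 1.83 to 2.24. The latter include the TAPE that drew attention to the family. For the 9 near Dusp5 in cortex it ran from 0.0891 to 0.144 with vehicle and from 0.129 to 0.320 with KCl (23 and 41 reads), where the gene rose 2.28-fold, and in striatum from 0.0518 to 0.138 and from 0.0738 to 0.151, where the gene rose 2.74-fold. For the 9 near Dusp6 in cortex it ran from 0.0641 to 0.262 and from 0.0841 to 0.132, where the gene rose 2.01-fold. The groups overlapped in these 3 cases. They also overlapped for every gene and region not named above with TAPEs within 200 kb. By mean, some of those sums were higher with KCl, as for Dusp4 in hippocampus. Others were lower although the gene rose, as for Dusp4 in striatum. Near Dusp10 in striatum there were 13 reads with vehicle (n = 4) and 1 with KCl (n = 3), where the gene rose 1.68-fold. Near Dusp5 in hippocampus there were 44 and 29, where the gene rose 1.28-fold.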
